A study of Mus musculus with 33 samples.

Results

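Wild-type mouse tongues were compared at postnatal day 20 (P20) and on the day of birth (P0), to describe which transcripts separate the tongue of a pup close to weaning from that of a newborn. The members were the libraries that the labels give as wild-type tongue at these ages, 3 at P20 and 3 at P0, which is 6 of the 33 labelled samples of the series. Their RNA-seq tables were joined row by row, and a gene was tested where its level reached 1 RPM (reads per 1000000 reads of the library, 0 on the log2 scale) in at least 3 of the 6 libraries. That left 12823 of 27825 listed genes, of which 340 passed through the P20 libraries alone and 227 through the P0 libraries alone and so had to differ.

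Both groups were whole tongues of mice with normal, maternally imprinted Zac1 (the older name of Plagl1), with 3 biological replicates each per the labels. RNA of both ages was extracted with TRIsure, cleared of ribosomal RNA with Ribo-Zero and made into strand-specific dUTP libraries. Tongues of the same ages from mice that express Zac1 from both alleles are used further on as a repeat of the comparison, and E13.5 wild-type tongues, extracted with another kit (AllPrep), serve only to place levels. The labels do not give strain, sex, litter or whether tongues were pooled. Each age was deposited as its own table, and age cannot be told apart from whatever else differed between the 2 tables. The libraries are bulk RNA, so fewer cells of a type and less RNA per cell cannot be told apart.

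The tongue is mostly striated muscle under a keratinized, papilla-bearing epithelium, held together by a fibrous lamina propria with vessels, nerves, taste buds and minor glands. In the weeks after birth, fetal muscle proteins are exchanged for their adult forms, motor endplates mature, and growth slows as a network of imprinted growth genes is shut down. Over the same weeks a pup changes from suckling to solid food, and the epithelium that carries the load of chewing stratifies and keratinizes further. Plagl1 encodes a zinc finger transcription factor of that imprinted network.

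The library read totals were 45859442, 58251242 and 45370175 at P20, against 61615137, 70774277 and 92249098 at P0. Listed genes took 36.8 to 37.37% of the reads at P20 and 32.13 to 33.65% at P0. A level of 3 reads corresponds to 0.0515 to 0.0661 RPM at P20 and 0.0325 to 0.0487 RPM at P0. The tissue label was checked against its markers: the skeletal muscle actin Acta1 had 2283, 2011 and 1575 RPM at P20, against 3711, 4603 and 2860 RPM at P0, and the oral keratin Krt13 had 3453, 2810 and 3936 RPM at P20, against 1194, 1061 and 1331 RPM at P0. Both were abundant in all 6 libraries, whereas the fat-cell genes Adipoq and Plin1 and the T-cell gene Cd3e stayed under 0.1 RPM. The liver genes Alb and Apoa1, chosen as markers absent from tongue, were not absent from every library. Alb had 1.16, 0.0515 and 0.0882 RPM at P20, against 0.0146, 0.212 and 6.34 RPM at P0. Apoa1 had 0.174, 0.01545 and 0.0198 RPM at P20, against 0.0162, 6.57 and 0.867 RPM at P0. Neither passed the level filter, and the source of these reads was not tested. The first principal component held 84.5% of the variance and separated the ages.

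Salivary gland transcripts were found in 1 P20 library. Smgc, a submandibular mucin-like gene, had 0.414, 104 and 0.242 RPM at P20, against 0.909, 0.763 and 1.08 RPM at P0. Dcpp1, a demilune cell protein gene, had 0.0196, 18.8 and 0.0198 RPM at P20, against 0.0146, 0.0127 and 0.00976 RPM at P0, and Pip and Lpo were likewise high in P20 replicate 2 alone. Such genes did not pass the level filter, and only 5 of the 26 salivary gland genes listed were tested. Of these 5 genes 3 rose and 1 fell, and without P20 replicate 2 there were 2 higher calls and 1 lower.

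Tested with limma and Benjamini-Hochberg adjustment over all tested genes, 6742 genes differed at an adjusted p under 0.05 and are called below. Higher levels at P20 were called for 4775 genes (37.2% of those tested) and lower levels for 1967 (15.3%). The median log2 fold change, P20 over P0, was 0.23, so the whole distribution was shifted upward at P20. With each library centred on its own median, 3391 genes were called higher (26.4%) and 3154 lower (24.6%), which brought the share of higher calls to 51.81%, against 70.82% without centring. The shift therefore sets the balance of small calls, and changes below are to be read relative to it. Of the uncentred calls, 5358 were also called after centring in the same direction and 0 in the opposite one. The shares of 37.2% higher and 15.3% lower are the background for the list counts below. Over all tested genes, 8115 (63.3%) had P20 and P0 libraries that did not overlap, so a lack of overlap was common.

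Changes of at least 2-fold were called higher at P20 for 1829 genes (14.3%) and lower for 892 (6.96%), and 2708 of these 2721 were called with centring too. With centring, 1335 genes were higher and 1163 lower by at least 2-fold, so the balance of these changes moved with the shift as well. At least 4-fold changes were called for 401 genes higher and 321 lower, and at least 16-fold changes for 35 higher and 44 lower. The biggest changes thus lay on both sides. Genes that passed the filter through the libraries of 1 age alone had to differ, so their values are descriptions. Among the genes named below these are 5 that passed through P20 (Bpifa5, Fmod, H2-Aa, H2-Eb1 and Pou2f3) and 12 that passed through P0 (Ccne1, Chrng, Dio3, Hmga2, Igf2bp1, Krt18, Krt8, Rtl1, Scx, Sfrp2, Tmem8c and Trpm5).

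**Figure D1:**
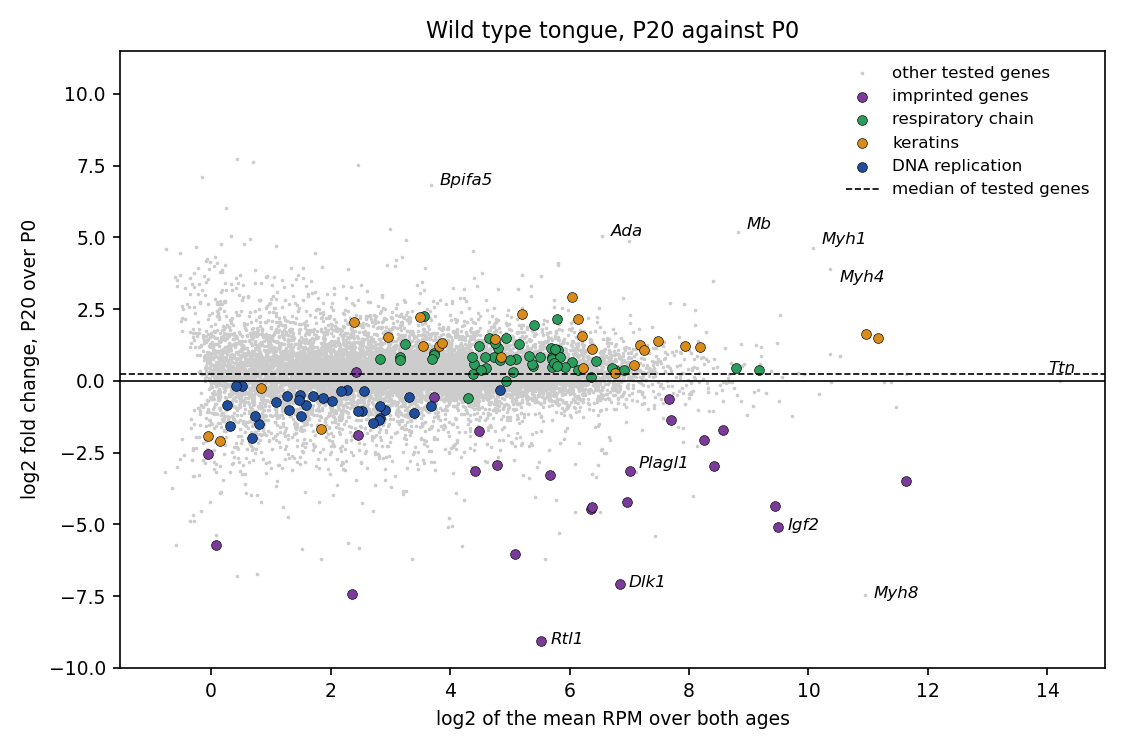
Log2 fold change, P20 over P0, of the 12823 tested genes (vertical axis) against the log2 of their mean RPM over both ages (horizontal axis), with 1 point per gene, 4 gene lists in colour and a dashed line at the median of 0.23. Imprinted genes lie below the line with 1 exception, DNA replication genes lie below it as well, and respiratory chain genes and keratins lie mostly above it.

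Imprinted growth genes fell almost as a whole list. Of 31 listed genes 25 were tested, and 24 fell, against 15.3% of all tested genes, with a median log2 fold change of -3.16. Of the 24, 4 had passed the filter through P0 alone, and 20 of the other 21 tested members fell. Plagl1 itself had 23.1, 25 and 30.5 RPM at P20, against 243, 229.7 and 221 RPM at P0 (log2 fold change -3.15 ± 0.12 (SE), adjusted p = 9.16e-07), and the 3 P20 libraries lay far below the 3 P0 libraries. Igf2, the fetal insulin-like growth factor, had 34.7, 40.2 and 47.8 RPM at P20, against 1408, 1492 and 1296 RPM at P0 (log2 fold change -5.11 ± 0.14 (SE), adjusted p = 1.42e-07). Dlk1, a membrane-bound inhibitor of differentiation, had 1.55, 1.82 and 1.68 RPM at P20, against 226, 246 and 211 RPM at P0 (log2 fold change -7.08 ± 0.11 (SE), adjusted p = 9.25e-09), and its neighbour on the same imprinted domain, the retrotransposon-derived Rtl1 that fetal muscle needs, had 0.153, 0.154 and 0.198 RPM at P20, against 87.1, 119.6 and 69.6 RPM at P0 (log2 fold change of -9.07). None of these groups overlapped, and Rtl1 had the lowest fold change named here. The long non-coding RNA Meg3 of that domain kept a sizeable level at P20, with 57.4, 71.9 and 62.4 RPM at P20, against 1203, 1499 and 1267 RPM at P0.

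Other members of the network followed. Cdkn1c, which encodes the cell-cycle inhibitor p57, had 12.7, 13.7 and 11.4 RPM at P20, against 222, 268 and 218 RPM at P0 (log2 fold change -4.22 ± 0.12 (SE), adjusted p = 1.64e-07). Peg10, Mest and Zim1, all paternally or maternally expressed genes abundant in the embryo, had log2 fold changes of -6.03, -4.47 and -4.41. Snrpn, a spliceosomal protein gene and the 1 tested member not called, had 7.46, 5.97 and 4.54 RPM at P20, against 4.11, 5.17 and 5 RPM at P0. Growth factors and a growth inhibitor thus both fell.

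Levels in E13.5 tongues, whose table was normalized separately, are given beside those after birth. Mean Igf2 was 324 RPM at E13.5, 1399 RPM at P0 and 40.9 RPM at P20, and mean Dlk1 was 85.6 RPM at E13.5, 227 RPM at P0 and 1.68 RPM at P20. Mean Plagl1 was 87.6 RPM at E13.5, 231 RPM at P0 and 26.2 RPM at P20. Each of these 3 means was highest at birth, and each was lower at P20 than at E13.5. Mean Cdkn1c was 618 RPM at E13.5, 236 RPM at P0 and 12.6 RPM at P20, mean Mest was 222 RPM at E13.5, 157 RPM at P0 and 7.13 RPM at P20, and mean Peg10 was 98.7 RPM at E13.5, 66.9 RPM at P0 and 1.03 RPM at P20. These 3 means were highest at E13.5, so the imprinted genes did not share a course before birth.

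In a list of fetal RNA-binding, chromatin and transcription factor genes, 9 of 13 tested members were lower and 2 higher, with a median of -1.83. Of the 9, 4 had passed the filter through P0 alone, and leaving out any library other than P0 replicate 2 left 1 higher call. Igf2bp3, which encodes an RNA-binding protein that binds Igf2 messenger RNA in the fetus, had 1.98, 1.91 and 2.07 RPM at P20, against 30.3, 33.6 and 43.2 RPM at P0 (log2 fold change -4.15 ± 0.15 (SE), adjusted p = 5.77e-07). Igf2bp1, Igf2bp2 and the chromatin protein gene Hmga2 had log2 fold changes of -5.82, -2.29 and -3.98. Hmga1, a relative of Hmga2, was called the other way at 1.0, from low levels at both ages.

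The insulin-like growth factor axis beyond Igf2 was mixed, with 7 of 20 members higher and 6 lower, against 37.2% higher and 15.3% lower of all tested genes. Igf1, the growth factor that serves postnatal growth, had 25.2, 27.2 and 12.3 RPM at P20, against 68.7, 88 and 52.8 RPM at P0 (log2 fold change -1.74 ± 0.30 (SE), adjusted p = 0.0014). Its level in the tongue was lower in each P20 library than in each P0 library. The receptor gene Igf1r had 175, 212 and 202 RPM at P20, against 169, 283 and 221 RPM at P0 and was not called. Pappa, a protease that frees growth factor from its binding proteins, had 107, 92.8 and 84.2 RPM at P20, against 28.9, 51.6 and 32.1 RPM at P0 (log2 fold change 1.38 ± 0.21 (SE), adjusted p = 0.00072), while its relative Pappa2 was lower at -2.43. Among the binding proteins Igfbp5 rose and Igfbp4 fell, with log2 fold changes of 0.78 and -1.04, and the call of Igfbp5 ended with centring (adjusted p = 0.0977 in limma) and without P20 replicate 1 or 2 or P0 replicate 3.

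Thyroid hormone drives much of postnatal muscle maturation through nuclear receptors. Thrb, which encodes the beta receptor, had 94.8, 104 and 88.7 RPM at P20, against 21.5, 20.6 and 20.4 RPM at P0 (log2 fold change 2.19 ± 0.10 (SE), adjusted p = 2.37e-06), while the alpha receptor gene Thra had 50.2, 48.4 and 48 RPM at P20, against 51.5, 56.6 and 54.7 RPM at P0 and was not called. Klf9 and Hr, both known thyroid hormone targets, rose with log2 fold changes of 1.5 and 1.84. Dio3, the enzyme that inactivates the hormone and is itself imprinted, and Dio2, the enzyme that activates it, fell with -2.56 and -1.13. Thrsp, named for its response to thyroid hormone, and Rxrg, also in the thyroid list, fell with -1.74 and -1.67, so genes tied to the hormone did not all rise. Over that list 4 of 10 tested members rose and 5 fell, against 37.2% and 15.3% of all tested genes, so its share of higher calls was close to that of all genes.

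Cell division genes were lower at P20 as a list, but the number of calls depended on single libraries. All 26 mitosis genes were tested, 9 were called lower and 0 higher, with a median of -0.71. Their summed level was 92.4, 80.0 and 192.5 RPM at P20, against 203.7, 180.0 and 175.4 RPM at P0, so P20 replicate 3 lay in the P0 range. Without that library 25 of the 26 were called lower, and without either of the other P20 libraries or without P0 replicate 1 only 1 was. After centring 16 were called, and 22 in the tongues with biallelic Zac1. The mitotic kinase gene Cdk1 had 2.18, 2.15 and 4.28 RPM at P20, against 8.1, 10.5 and 6.81 RPM at P0 (log2 fold change -1.62 ± 0.28 (SE), adjusted p = 0.00152), and the mitotic spindle motor gene Kif11 had 4.27, 3.85 and 9.12 RPM at P20, against 11.3, 9.69 and 8.95 RPM at P0 (log2 fold change -0.90 ± 0.30 (SE), adjusted p = 0.0302). The call of Kif11 ended without P20 replicate 1 or 2 or P0 replicate 1 or 2, whereas Cdk1 kept its call in each of these fits. The proliferation marker Mki67 had 21.2, 18.9 and 46.6 RPM at P20, against 50.5, 41.9 and 40.8 RPM at P0 and was not called.

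Most DNA replication genes fell, with 22 of 31 tested members lower, 0 higher and a median of -0.85. Mcm5, a subunit of the replicative helicase, had 3.38, 2.94 and 4.03 RPM at P20, against 12.4, 6.95 and 9.58 RPM at P0 (log2 fold change -1.46 ± 0.22 (SE), adjusted p = 0.000728), and its partner Mcm3 had 4.19, 3.66 and 4.36 RPM at P20, against 11.9, 8.44 and 9.94 RPM at P0 (log2 fold change -1.30 ± 0.16 (SE), adjusted p = 0.000246). With the filter raised to 5 RPM the list gave 10 lower calls, since fewer of its genes are then tested, and with centring 29. The cyclin gene Ccne1, which opens S phase, had the lowest fold change of the list at -1.98. Replication-dependent histone genes had 7 of 9 tested members lower, yet near-identical copies make the count of each uncertain. These transcripts lack a poly(A) tail, and the libraries were made from RNA cleared of ribosomal RNA with Ribo-Zero. Among genes of cell-cycle arrest 4 of 16 rose and 5 fell, against 37.2% and 15.3% of all tested genes. The lower calls were 2 without P20 replicate 1 and 3 without P20 replicate 2 or P0 replicate 1. The higher calls were 7 without P0 replicate 2. The highest log2 fold change of the list was that of Gadd45g at 2.04, while the p21 gene Cdkn1a fell with -0.55.

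The promoters of 4 of these called genes are shown because mitosis and replication genes differ in how often they carry certain motifs near their start sites. Each stretch runs from 250 bases before to 50 bases after the start of the RefSeq gene on the gene's strand, in build GRCm38.p6. For Cdk1 (chr10:69352863-69353162, minus strand) and Kif11 (chr19:37376132-37376431, plus strand) capitals mark TTTGAA, the cell-cycle homology region (CHR) element, and CCAAT, in either orientation. For Mcm5 (chr8:75109259-75109558, plus strand) and Mcm3 (chr1:20820263-20820562, minus strand) capitals mark the E2F motifs TTTCCCGC, TTTGGCGC and TTCCCGCC in either orientation, of which TTTCCCGC and TTCCCGCC can overlap and do so in Mcm3. CCAAT is not marked in Mcm5 and Mcm3, although both stretches hold it.
Cdk1: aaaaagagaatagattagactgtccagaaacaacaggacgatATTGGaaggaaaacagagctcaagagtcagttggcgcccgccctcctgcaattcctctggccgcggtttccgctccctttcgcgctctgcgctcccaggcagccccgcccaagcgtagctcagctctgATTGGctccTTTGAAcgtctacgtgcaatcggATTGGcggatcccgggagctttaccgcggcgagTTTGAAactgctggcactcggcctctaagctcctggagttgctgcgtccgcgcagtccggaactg
Kif11: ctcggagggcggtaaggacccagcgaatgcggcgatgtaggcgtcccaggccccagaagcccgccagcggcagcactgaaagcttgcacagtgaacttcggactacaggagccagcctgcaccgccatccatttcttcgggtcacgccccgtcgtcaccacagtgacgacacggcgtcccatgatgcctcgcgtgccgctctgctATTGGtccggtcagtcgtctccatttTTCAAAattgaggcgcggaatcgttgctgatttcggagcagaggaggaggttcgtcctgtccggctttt
Mcm5: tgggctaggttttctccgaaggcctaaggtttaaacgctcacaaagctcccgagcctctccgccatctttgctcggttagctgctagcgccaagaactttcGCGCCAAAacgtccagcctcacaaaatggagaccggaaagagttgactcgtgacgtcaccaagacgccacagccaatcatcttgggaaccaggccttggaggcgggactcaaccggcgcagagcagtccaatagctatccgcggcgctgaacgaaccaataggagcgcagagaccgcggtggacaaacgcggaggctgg
Mcm3: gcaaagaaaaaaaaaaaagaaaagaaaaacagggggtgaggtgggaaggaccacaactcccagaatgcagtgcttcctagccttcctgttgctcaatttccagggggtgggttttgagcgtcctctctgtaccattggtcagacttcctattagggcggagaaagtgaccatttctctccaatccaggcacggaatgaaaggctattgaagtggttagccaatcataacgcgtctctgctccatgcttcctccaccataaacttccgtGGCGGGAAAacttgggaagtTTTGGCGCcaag

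Across the 27025 promoters of the same length, TTTGAA occurred in 18.1%, CCAAT in 37.9% and both together in 7.1%. Among the 21 mitosis promoters available, 71.4% held TTTGAA, 81.0% CCAAT and 66.7% both. Among the 27 replication promoters 14.8% held TTTGAA, 59.3% CCAAT and 11.1% both, so CCAAT was frequent in both lists. At least 1 of the 3 E2F motifs occurred in 48.1% of 27 replication promoters, against 3.3% of all, and in 0 of the 21 mitosis promoters. Within the replication list the motifs did not follow the call: they were in 43.8% of the promoters of genes called lower and in 54.5% of the others. A match describes letters in this window and nothing about which factor was bound.

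**Figure D2:**
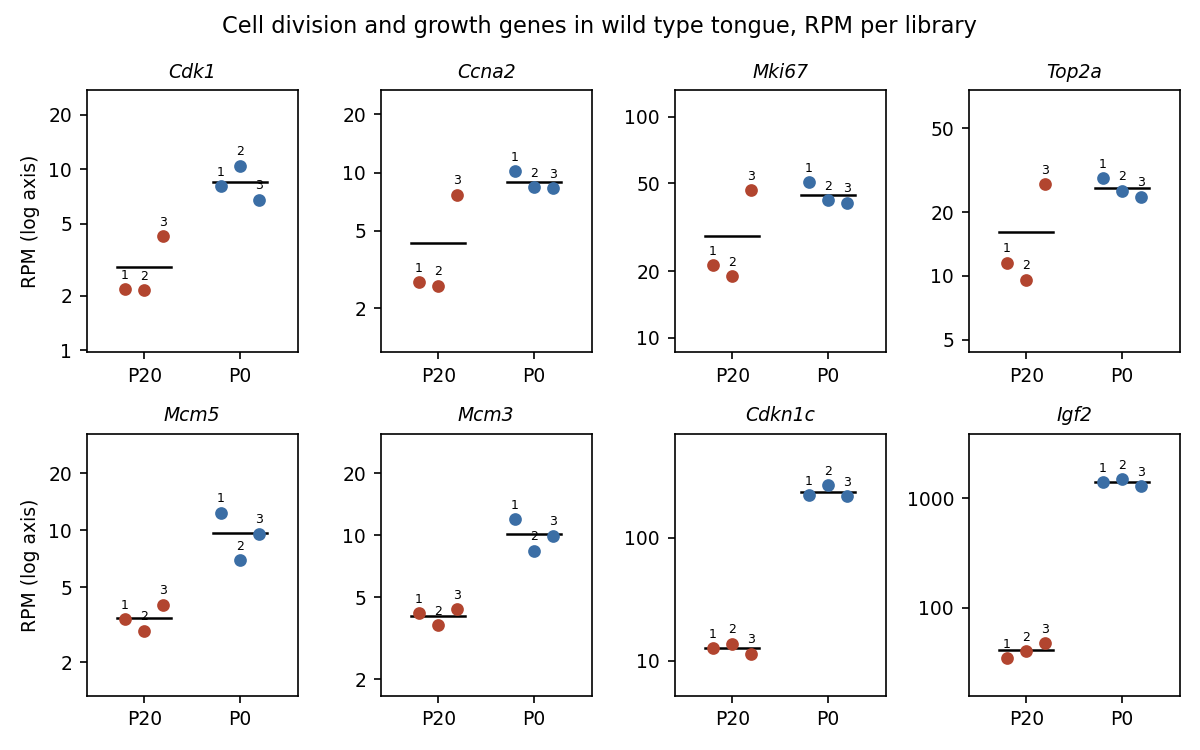
Levels in RPM (log axes) of 8 cell division and growth genes in the 3 P20 and 3 P0 wild-type libraries, with 1 point per library numbered by replicate and a bar at the group mean. P20 replicate 3 sits above the other P20 libraries for the mitosis genes Cdk1, Ccna2, Mki67 and Top2a, whereas the replication genes and Igf2 and Cdkn1c have all P20 libraries close together and below P0.

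In muscle, transcripts of fetal isoforms fell and those of many adult isoforms rose, while several of the main sarcomere genes were not called. Ttn, which encodes titin, the elastic filament from Z-disc to M-line, had 20560, 20840 and 15260 RPM at P20, against 18570, 20620 and 17910 RPM at P0 and was not called. Neb, nebulin, which runs along the thin filament, had 2891, 2830 and 2238 RPM at P20, against 2784, 2916 and 2419 RPM at P0 and was not called either. In the thick filament 3 of 15 tested genes rose and 9 fell, with a median of -1.18. Summed thick filament genes were 6974, 6111 and 5354 RPM at P20, against 7560, 8527 and 6809 RPM at P0, with P20 replicate 3 the lowest of all 6.

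Myosin heavy chain genes changed in opposite directions. Myh8, the perinatal chain, had 32.4, 25.5 and 12.9 RPM at P20, against 3856, 4264 and 3590 RPM at P0 (log2 fold change -7.47 ± 0.29 (SE), adjusted p = 9.05e-07), and Myh3, the embryonic chain, had 11.7, 5.18 and 7.78 RPM at P20, against 255, 360.2 and 392 RPM at P0 (log2 fold change -5.40 ± 0.28 (SE), adjusted p = 4.12e-06). Both fell to small remnants in every P20 library. Myh4, the fast IIb chain, had 2828, 2342 and 2197 RPM at P20, against 205, 220 and 101 RPM at P0 (log2 fold change 3.88 ± 0.28 (SE), adjusted p = 1.98e-05), and Myh1, the fast IIx chain, had 2198, 2141 and 1833 RPM at P20, against 131, 109 and 39.6 RPM at P0 (log2 fold change 4.63 ± 0.38 (SE), adjusted p = 3.6e-05). No library of the 2 ages overlapped for any of these 4 genes, and P0 replicate 3 was the lowest for both adult chains. Myh2, the fast IIa chain, had 54.2, 50.5 and 24.6 RPM at P20, against 40.6, 46.2 and 7.95 RPM at P0 and was not called, with P0 replicate 3 again low. Reads from these closely related genes could be split differently by another counter.

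In log2 units the ratio of Myh4 to Myh8 was 6.45, 6.52 and 7.42 at P20, against -4.23, -4.28 and -5.15 at P0. Because each gene's length is the same at both ages, the difference of 11.35 between the mean ratios does not depend on length. Myh13, the chain known from extraocular and laryngeal muscle, had 6.76, 3.12 and 2.95 RPM at P20, against 16.8, 53.1 and 11.7 RPM at P0 (log2 fold change -2.46 ± 0.53 (SE), adjusted p = 0.00433), with P0 replicate 2 the highest. Among the light chains the fetal Myl4 had 5.95, 5.42 and 4.94 RPM at P20, against 124, 136 and 130.2 RPM at P0 (log2 fold change -4.58 ± 0.11 (SE), adjusted p = 5.74e-08), while the adult fast Myl1 fell less, with -1.22. Mean Myh8 was 32.7 RPM at E13.5, 3903 RPM at P0 and 23.6 RPM at P20, and mean Myh3 was 221 RPM at E13.5, 335 RPM at P0 and 8.23 RPM at P20, so of these ages the perinatal chain was high at birth alone.

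**Figure D3:**
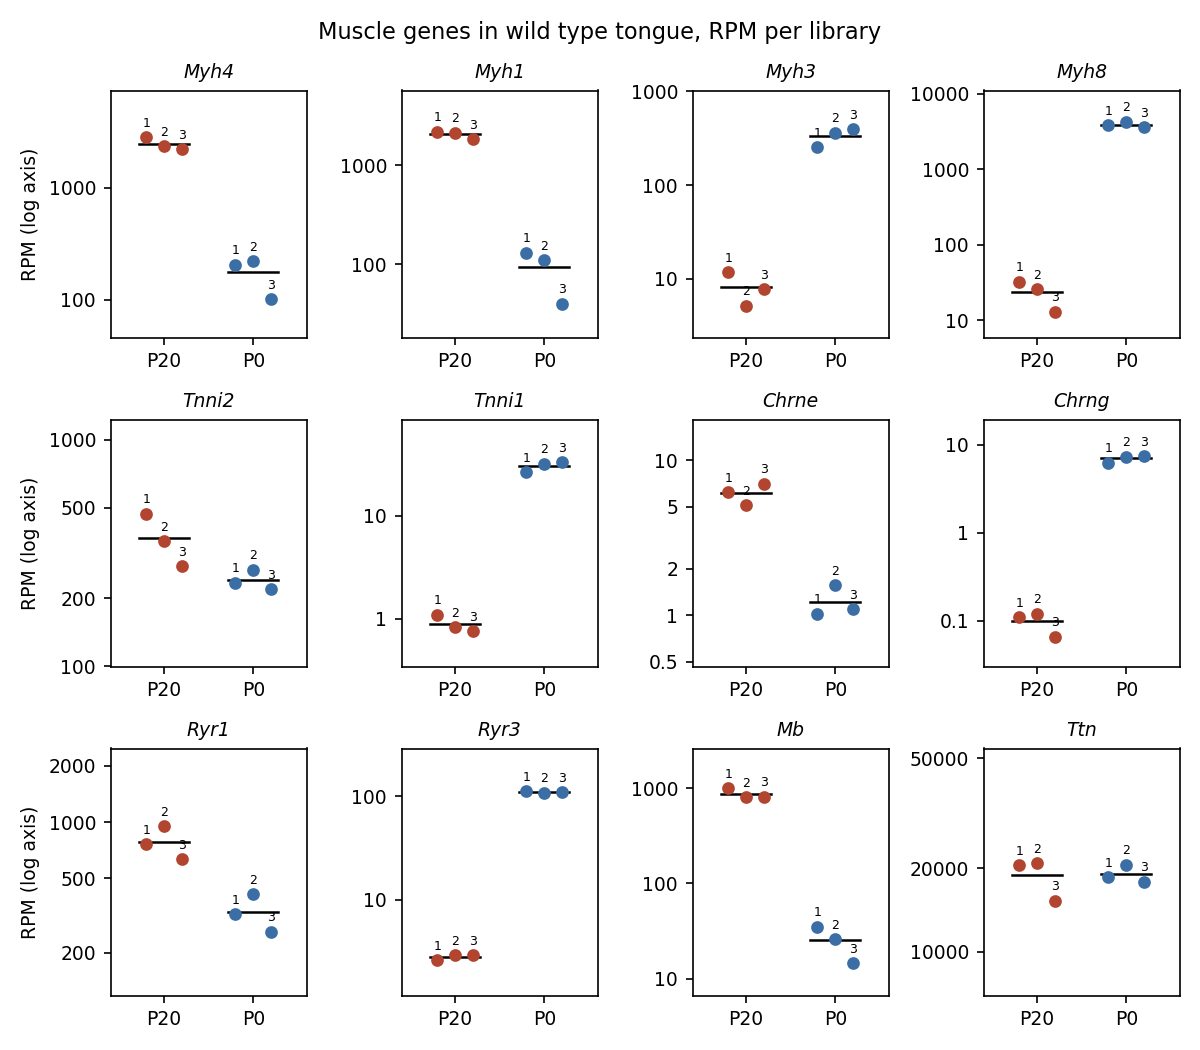
Levels in RPM (log axes) of 12 muscle genes in the 3 P20 and 3 P0 wild-type libraries, with 1 point per library numbered by replicate and a bar at the group mean. Adult myosins, Chrne, Ryr1 and Mb are higher at P20, fetal myosins, Tnni1, Chrng and Ryr3 are higher at P0, and Ttn overlaps between the ages.

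In the thin filament slow and cardiac forms fell, with 4 of 18 tested members higher and 8 lower. Tnni1, the slow troponin I that fetal fast muscle also makes, had 1.09, 0.824 and 0.749 RPM at P20, against 26.2, 31.8 and 33 RPM at P0 (log2 fold change -5.11 ± 0.18 (SE), adjusted p = 4.75e-07), and Tnni2, the fast form, had 471, 357 and 277 RPM at P20, against 234, 267 and 219 RPM at P0 (log2 fold change 0.59 ± 0.19 (SE), adjusted p = 0.0295). The call of Tnni2 ended with centring (adjusted p = 0.173 in limma) and without P20 replicate 1 or 2 or P0 replicate 1 or 3. The cardiac troponin T gene Tnnt2 and the slow Tnnt1 fell with log2 fold changes of -3.0 and -2.87, while the fast Tnnt3 had 1206, 999.5 and 778 RPM at P20, against 829, 942 and 706 RPM at P0 and was not called. Cardiac actin, Actc1, had 68.9, 65.8 and 5.03 RPM at P20, against 278, 649.6 and 543 RPM at P0 (log2 fold change -4.02 ± 0.89 (SE), adjusted p = 0.00506). P20 replicate 3 was far below the other P20 libraries for Actc1, and each P20 value lay below each P0 value. Skeletal actin, Acta1, fell less, with -0.92, and missed the threshold without P0 replicate 2 (adjusted p = 0.0519 in limma). After centring 2 thin filament genes were called higher and 9 lower.

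At the Z-disc and M-line 9 of 24 tested genes rose and 5 fell, close to the 37.2% and 15.3% of all tested genes. Tcap, telethonin, which caps titin at the Z-disc, had 239.7, 205 and 185 RPM at P20, against 34.1, 28.4 and 23 RPM at P0 (log2 fold change 2.89 ± 0.16 (SE), adjusted p = 5.55e-06). The muscle ubiquitin ligase genes Fbxo32 and Trim63 rose with 2.52 and 1.51. Actn3, the fast-fibre alpha-actinin, went the other way, with 19.9, 14.3 and 10.8 RPM at P20, against 135, 244 and 99.8 RPM at P0 (log2 fold change -3.35 ± 0.32 (SE), adjusted p = 7.39e-05). Myom2, an M-band protein of fast fibres, fell with -1.61. Fast isoforms thus did not all rise.

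Of the calcium release channels the adult form rose and the developmental form fell. Their list had 7 of 24 tested genes higher and 6 lower, against 37.2% and 15.3% of all tested genes, so its share of higher calls was below that of all genes. Ryr1, the skeletal ryanodine receptor, had 762, 953 and 632 RPM at P20, against 322, 412 and 259 RPM at P0 (log2 fold change 1.25 ± 0.21 (SE), adjusted p = 0.00127), and Ryr3, a receptor of developing muscle, had 2.57, 2.9 and 2.89 RPM at P20, against 112, 108 and 109.7 RPM at P0 (log2 fold change -5.30 ± 0.10 (SE), adjusted p = 2.52e-08). The groups did not overlap for either. Atp2a1, the fast-fibre calcium pump, rose with 0.87, the chloride channel Clcn1 with 1.41 and the calcium sensor S100a1 with 2.72. The call of Atp2a1 ended with centring (adjusted p = 0.0605 in limma). The calsequestrins that buffer calcium in the reticulum both fell, Casq2 at -3.19 and Casq1 at -1.29. Scn4a, the sodium channel of adult muscle, rose at 1.0. Centring reduced the higher calls of this list to 4 and brought the lower ones to 11.

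At the neuromuscular junction 3 of 18 genes rose and 10 fell, with a median of -0.59. The acetylcholine receptor exchanges its fetal gamma subunit for epsilon as endplates mature. Chrne, the epsilon subunit, had 6.24, 5.13 and 7.05 RPM at P20, against 1.02, 1.55 and 1.09 RPM at P0 (log2 fold change 2.34 ± 0.21 (SE), adjusted p = 5.77e-05), and Chrng, the gamma subunit, had 0.109, 0.12 and 0.0661 RPM at P20, against 6.28, 7.33 and 7.45 RPM at P0 (log2 fold change of -6.20). Chrng rested on 15 reads over the 3 P20 libraries. The alpha, beta and delta subunit genes Chrna1, Chrnb1 and Chrnd, which serve both receptors, fell with -2.07, -1.40 and -1.94. Ncam1, the adhesion molecule that immature or denervated fibres carry on their surface, had 29.5, 31.1 and 26.2 RPM at P20, against 132, 179 and 157 RPM at P0 (log2 fold change -2.42 ± 0.14 (SE), adjusted p = 5.66e-06). Musk, the kinase that organizes the endplate, had 41.1, 45.3 and 32.1 RPM at P20, against 24.3, 46.5 and 23.5 RPM at P0 and was not called.

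Among myogenic regulators 11 of 23 tested genes fell and 1 rose, with a median of -0.41. Myog, the transcription factor of differentiating myoblasts, had 5.54, 3.97 and 5.75 RPM at P20, against 29.8, 30.6 and 33.9 RPM at P0 (log2 fold change -2.65 ± 0.16 (SE), adjusted p = 8.16e-06). Tmem8c, which encodes the fusion protein myomaker, had 0.349, 0.292 and 0.198 RPM at P20, against 18.7, 21.7 and 20.5 RPM at P0 (log2 fold change of -6.22). Myod1, Myf5 and the satellite cell gene Megf10 fell with -1.30, -1.23 and -2.40, as did Mstn, the muscle growth inhibitor myostatin, with -1.22, a call that ended without P20 replicate 3 (adjusted p = 0.0779 in limma). With centring 16 members were called lower.

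Over 26 isoform pairs with values, the log2 ratio of the form listed as later to the form listed as earlier was higher at P20 in 21. Not every pair is an adult and a fetal form, since some, such as Pgam2 and Pgam1, are forms of different tissues. Genes such as Myh4 and Myh8 are in more than 1 pair, so the 21 are not separate switches. In 23 pairs the P20 and P0 libraries did not overlap, in either direction, as was also the case for the levels of 63.3% of all tested genes. For a single pair, 3 libraries against 3 cannot give an exact two-sided permutation p below 0.1. The ratio of Chrne to Chrng was 5.84, 5.42 and 6.74 at P20, against -2.62, -2.24 and -2.77 at P0, that of Tnni2 to Tnni1 was 8.76, 8.76 and 8.53 at P20, against 3.16, 3.07 and 2.73 at P0, and that of Ryr1 to Ryr3 was 8.21, 8.36 and 7.77 at P20, against 1.52, 1.93 and 1.24 at P0. The other 5 pairs had a lower mean ratio at P20. Actn3 to Actn2 was -3.96, -4.64 and -4.44 at P20, against -1.61, -0.76 and -1.91 at P0, and Pgam2 to Pgam1, the muscle and brain phosphoglycerate mutases, was 4.78, 4.71 and 4.08 at P20, against 7.21, 6.98 and 6.27 at P0. The ratio of Ckm to Ckb, muscle to brain creatine kinase, overlapped between the ages, with 7.41, 7.14 and 6.35 at P20, against 7.04, 7.64 and 6.96 at P0.

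**Figure D4:**
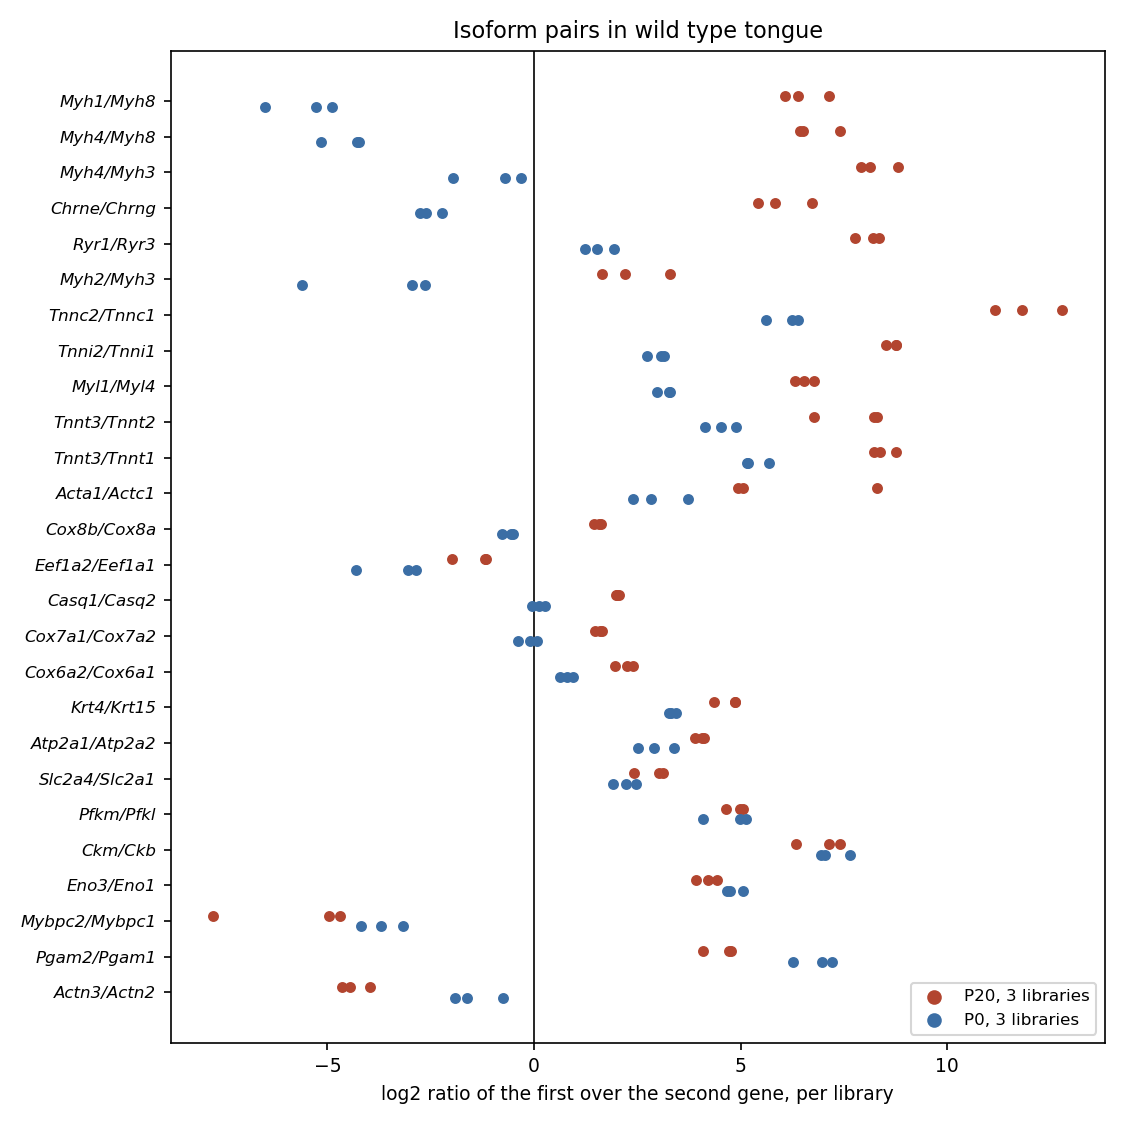
Log2 ratio of the form listed as later to the form listed as earlier (horizontal axis) for 26 pairs (rows, ordered by the difference between the ages), with 1 point per library, P20 in red and P0 in blue. The ratio is further right at P20 in 21 pairs, and Actn3/Actn2, Pgam2/Pgam1 and Mybpc2/Mybpc1 lie furthest left of their P0 values.

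Mitochondrial energy genes were mostly higher at P20. Myoglobin, Mb, the oxygen store of oxidative fibres, had 1006, 804 and 814 RPM at P20, against 35.2, 25.9 and 14.6 RPM at P0 (log2 fold change 5.20 ± 0.28 (SE), adjusted p = 4.63e-06), with all 3 P20 libraries above all P0 libraries. Of 52 tested respiratory chain genes 44 rose and 1 fell, against 37.2% and 15.3% of all genes, and the median was 0.76. With centring 33 were called higher and 1 lower. The largest rise of the list was that of the cytochrome c oxidase subunit gene Cox7c, at 2.265. Of the muscle forms of such subunits, Cox8b had 101, 73.7 and 95.8 RPM at P20, against 24.2, 17.8 and 18.49 RPM at P0 (log2 fold change 2.16 ± 0.16 (SE), adjusted p = 2.31e-05), and Cox7a1 had 85.8, 57.6 and 59.7 RPM at P20, against 19.1, 19.7 and 13.49 RPM at P0 (log2 fold change 1.95 ± 0.19 (SE), adjusted p = 8.96e-05). The muscle form Cox6a2 rose less, at 0.82, close to the list median. Cox6a1, the widespread form of subunit 6A, was the 1 member that fell, at -0.59.

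The tricarboxylic acid cycle and mitochondrial control list had 14 of 21 members higher and 1 lower. Esrrg, a nuclear receptor that drives oxidative genes in muscle, had 81.2, 122 and 82.7 RPM at P20, against 35.5, 24.4 and 33.3 RPM at P0 (log2 fold change 1.61 ± 0.20 (SE), adjusted p = 0.000235). Ppargc1a, the coactivator that partners it, had 74.4, 130.2 and 71.3 RPM at P20, against 35.8, 122 and 54.6 RPM at P0 and was not called. Idh2, a mitochondrial isocitrate dehydrogenase, was the member that fell, at -1.28, while the citrate synthase gene Cs rose at 0.79. Of 26 genes of fatty acid use 16 rose and 0 fell, and with centring, or without P20 replicate 1, 10 were called higher. Lpl, which frees fatty acids from blood lipids, had 167, 152 and 137 RPM at P20, against 80.4, 65 and 73.5 RPM at P0 (log2 fold change 1.06 ± 0.12 (SE), adjusted p = 0.000191), and the uptake protein gene Cd36 rose at 0.86. In the adipocyte list 8 of 10 tested genes rose and 1 fell, although the defining fat-cell genes Adipoq and Plin1 stayed under the level filter in every library. Car3, a carbonic anhydrase of slow muscle and fat, fell, with 1.33, 1.32 and 1.19 RPM at P20, against 116, 88.7 and 81 RPM at P0 (log2 fold change -6.20 ± 0.15 (SE), adjusted p = 5.74e-08).

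Glycolysis and glycogen genes were divided. Of 23 tested glycolysis genes 9 rose and 6 fell, with a share of higher calls close to the 37.2% of all tested genes, and 6 rose and 8 fell after centring. Hexokinase 2, Hk2, which traps glucose in muscle, had 121, 131 and 107 RPM at P20, against 45.4, 44.6 and 39.9 RPM at P0 (log2 fold change 1.47 ± 0.11 (SE), adjusted p = 2.69e-05), and the insulin-regulated glucose transporter Slc2a4 rose at 1.07. Ldhb, the lactate dehydrogenase of oxidative tissue, had 30.3, 28.2 and 21 RPM at P20, against 3.93, 4.8 and 3.65 RPM at P0 (log2 fold change 2.68 ± 0.17 (SE), adjusted p = 1.11e-05), whereas Ldha, the muscle form, fell at -0.67. The lactate exporter gene Slc16a3 fell at -2.2. In the phosphagen and glycogen list 9 of 18 rose and 2 fell. Ckmt2, the mitochondrial creatine kinase of muscle, had 331, 263 and 198 RPM at P20, against 78, 82 and 53.5 RPM at P0 (log2 fold change 1.88 ± 0.22 (SE), adjusted p = 0.000181), while cytosolic Ckm had 1654, 1212 and 1069 RPM at P20, against 1246, 1656 and 1142 RPM at P0 and was not called. Stbd1, which tethers glycogen for breakdown, fell at -3.91.

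The epithelium showed higher keratinization genes. Of 32 listed keratins 27 were tested, 20 rose and 3 fell, with a median of 1.22. Krt4, a keratin of mucosal upper layers, had 3095, 2606 and 3372 RPM at P20, against 974, 868 and 1121 RPM at P0 (log2 fold change 1.61 ± 0.19 (SE), adjusted p = 0.00018). Krt6b, a keratin of papillae and of epithelia under stress, had 123, 96.6 and 127 RPM at P20, against 20.3, 10.6 and 16.6 RPM at P0 (log2 fold change 2.91 ± 0.23 (SE), adjusted p = 2.56e-05). Krt10, the keratin of cornifying skin, had 47.8, 38.4 and 102 RPM at P20, against 12.1, 10.6 and 11.2 RPM at P0 (log2 fold change 2.34 ± 0.31 (SE), adjusted p = 0.000335), and P20 replicate 3 stood well above the other P20 libraries. The 3 keratins that fell were Krt1 and the simple-epithelium keratins Krt8 and Krt18, at -1.68, -1.91 and -2.08. Mean Krt1 was 1.96 RPM at P20, against 5.18 RPM at P0. Krt84, a hair-type keratin of tongue papillae, had 139.6, 107 and 244 RPM at P20, against 111, 87.3 and 123 RPM at P0 and was not called. Summed keratins were 8869, 7269 and 10580 RPM at P20, against 3340, 2800 and 3687 RPM at P0, so the ages did not overlap. P20 replicate 3, the lowest library for the thick filament sum, was the highest for the keratins, and without it 18 keratins were called higher and 3 lower.

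Cornified envelope genes had 21 of 26 tested members higher and 2 lower, and the same counts after centring. Tgm3, the transglutaminase that cross-links the envelope, had 453, 378 and 425 RPM at P20, against 77.5, 52.4 and 66.2 RPM at P0 (log2 fold change 2.69 ± 0.16 (SE), adjusted p = 7.33e-06). Lor, loricrin, and Flg, filaggrin, proteins of cornifying cells, had log2 fold changes of 2.55 and 2.76. Sprr3 and Sprr1a, small proline-rich envelope precursors, were the members that fell, at -1.18 and -1.58. Of 19 tested epithelial transcription factors 17 rose and 0 fell, with 16 called higher after centring. Grhl3, a factor of barrier formation, had 91.1, 78.1 and 91.6 RPM at P20, against 20.7, 12 and 27 RPM at P0 (log2 fold change 2.2 ± 0.26 (SE), adjusted p = 0.000188), and Barx2, Ovol1 and Hoxc13 rose at 1.71, 1.91 and 2.18.

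Ada, Aldh3a1, Adh7, Bpifa5, Fetub and Fmo2 were among the 20 largest rises of genes that averaged at least 20 RPM in an age and did not overlap. Ada, adenosine deaminase, had 188, 148 and 204 RPM at P20, against 7.76, 5.04 and 4.11 RPM at P0 (log2 fold change 5.03 ± 0.23 (SE), adjusted p = 2.02e-06). Aldh3a1, an aldehyde dehydrogenase of surface epithelia, had 223, 196 and 323 RPM at P20, against 13.9, 6.49 and 6.03 RPM at P0 (log2 fold change 4.89 ± 0.31 (SE), adjusted p = 1.13e-05), and Adh7, an alcohol dehydrogenase of the upper digestive tract, rose at 3.74. Bpifa5, of the BPI-fold family of oral secreted proteins, had 25.8, 19.4 and 30.4 RPM at P20, against 0.682, 0.184 and 0.0867 RPM at P0 (log2 fold change of 6.81). In all 4 the P20 and P0 libraries were wide apart, and P0 replicate 1 was the highest of its group. Fetub and Fmo2, a fetuin and a flavin monooxygenase, rose at 4.09 and 3.30.

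Taste genes could be followed only in part, with 7 of 20 tested, 4 higher and 3 lower. Of these 7, 2 had passed the filter through P20 alone and 1 through P0 alone. Pou2f3, the transcription factor of sweet, bitter and umami receptor cells, had 2.81, 3.11 and 4.65 RPM at P20, against 0.795, 0.424 and 0.911 RPM at P0 (log2 fold change of 2.35). Entpd2, an ATP-degrading enzyme of the glial-like taste cells, rose at 0.95. Kcnq1 and Trpm5, channels encoded side by side in an imprinted region, fell at -1.56 and -4.24. Because overlapping transcripts of that region could be counted to them, their calls are uncertain. The taste G protein gene Gnat3 did not reach the level filter.

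The extracellular matrix was mostly lower at P20. Of 24 collagen genes 17 fell and 1 rose, with a median of -0.87. Col12a1, a fibril-associated collagen of growing tendon and fascia, had 30.6, 35.4 and 22.7 RPM at P20, against 168, 149.9 and 179 RPM at P0 (log2 fold change -2.51 ± 0.16 (SE), adjusted p = 1.26e-05). The collagen VI genes Col6a1, Col6a2 and Col6a3, whose chains assemble together around muscle fibres, fell at -1.71, -1.42 and -1.64. Col1a1, the main chain of fibrillar collagen I, had 433, 496 and 282 RPM at P20, against 442, 444 and 335 RPM at P0 and was not called. Col17a1, a hemidesmosome collagen of basal keratinocytes, was the 1 that rose, at 1.09.

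Elastic fibre and cross-linking genes had 17 of 27 members lower and 3 higher. Fbn2, the fetal fibrillin, had 7.65, 6.46 and 8 RPM at P20, against 157, 186 and 185 RPM at P0 (log2 fold change -4.58 ± 0.12 (SE), adjusted p = 1.18e-07), and Fbn1, the adult one, had 227, 284 and 198 RPM at P20, against 287, 226 and 266 RPM at P0 and was not called. Lox, the enzyme that cross-links collagen and elastin, had 5.28, 6.49 and 6.52 RPM at P20, against 40.1, 44.5 and 44.1 RPM at P0 (log2 fold change -2.82 ± 0.12 (SE), adjusted p = 1.75e-06). Among proteoglycans and matricellular proteins 10 of 22 fell and 5 rose. Tnc, tenascin C, a protein of growing and healing matrix, had 23.2, 20.9 and 17.8 RPM at P20, against 162, 146 and 164 RPM at P0 (log2 fold change -2.94 ± 0.12 (SE), adjusted p = 1.31e-06), and Postn, periostin, had 86.8, 102 and 78.1 RPM at P20, against 419, 368 and 379 RPM at P0 (log2 fold change -2.13 ± 0.13 (SE), adjusted p = 9.52e-06). Dcn, decorin, which coats mature collagen fibrils, was higher with 159, 185 and 179 RPM at P20, against 103, 95.8 and 85.7 RPM at P0 (log2 fold change 0.88 ± 0.12 (SE), adjusted p = 0.000391), and Fmod and Prelp, proteoglycans of dense tissue, rose at 2.13 and 1.73.

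Transcription factors of tongue mesenchyme had 12 of 17 tested members lower and 1 higher, with a median of -0.79. Of the 12, 2 had passed the filter through P0 alone, and there were 0 higher calls without P20 replicate 1 or P0 replicate 1 or 2. Scx, the tendon factor, fell at -2.11, and Twist1 and Hand2 of the branchial arch mesenchyme at -1.57 and -1.60. In the hedgehog list, a pathway that patterns papillae, 4 of 11 fell and 1 rose, and 9 were called lower after centring. Leaving out any library other than P0 replicate 3 left 0 higher calls. Gli1, a pathway target, had 2.83, 2.54 and 3.62 RPM at P20, against 5.57, 5.59 and 6.33 RPM at P0 (log2 fold change -0.97 ± 0.17 (SE), adjusted p = 0.00146). BMP and Wnt genes were mixed, with 10 of 27 higher, close to the 37.2% of all tested genes, and 8 lower, of which 2 had passed the filter through P0 alone. Lef1, a Wnt effector, rose at 1.36, while Lgr5, a Wnt-dependent stem cell receptor, and Sfrp2, a secreted Wnt inhibitor, fell at -1.41 and -2.18. Cartilage and bone genes reached the filter in 5 of 18 cases, with 2 higher and 2 lower.

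**Figure D5:**
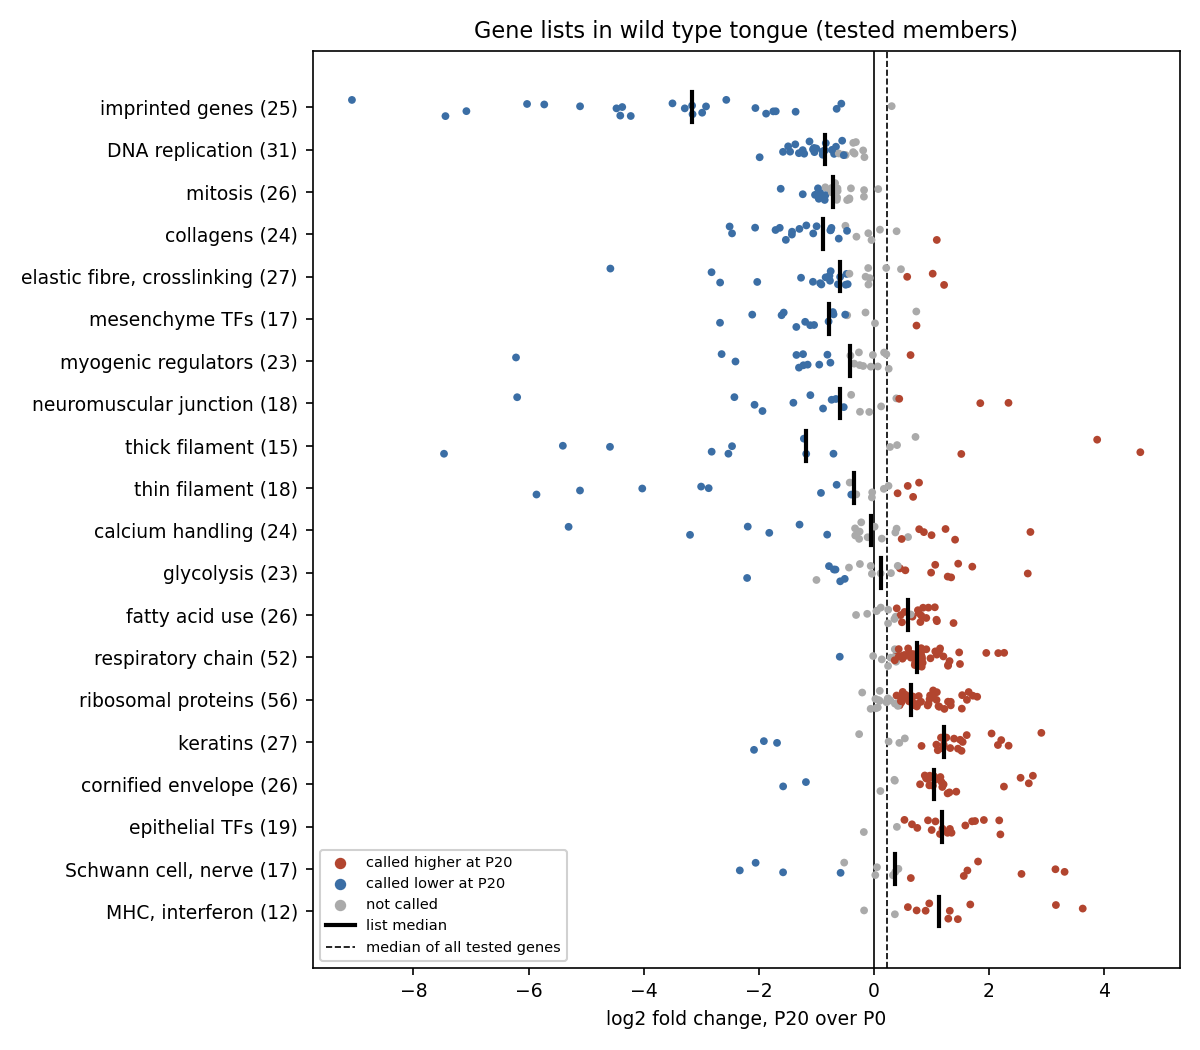
Log2 fold change, P20 over P0 (horizontal axis), of the tested members of 20 gene lists (rows, with the number of members), with 1 point per gene coloured by its call, a bar at each list's median and a dashed line at the median of all tested genes, 0.23. Imprinted genes reach furthest down with a median of -3.16, and keratins, epithelial transcription factors and antigen presentation genes have the medians furthest above the dashed line.

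Vessel genes had 13 of 25 members higher and 4 lower, with a median of 0.44, and 10 were called higher after centring. Rgs5, a pericyte gene, had 126, 145 and 119 RPM at P20, against 36.4, 22.8 and 28.2 RPM at P0 (log2 fold change 2.18 ± 0.17 (SE), adjusted p = 2.66e-05). Flt1, a receptor for vascular endothelial growth factor, had 53.3, 72.9 and 63.3 RPM at P20, against 17.3, 24.5 and 22.5 RPM at P0 (log2 fold change 1.56 ± 0.16 (SE), adjusted p = 0.000109), with no overlap between the ages for either gene. Aqp7 and Cd300lg, capillary genes, rose at 1.89 and 1.66. The 4 members that fell were the lymphatic genes Flt4 and Lyve1, at -0.64 and -0.71, and Cldn5 and Cspg4, at -0.74 and -0.35.

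In nerve the myelin gene Prx rose, and Ngfr and Gap43, genes of immature Schwann cells and of growing axons, fell. Of 17 tested members 7 rose and 4 fell, against 37.2% higher and 15.3% lower of all tested genes. Of the 7, 4 had passed the filter through P20 alone and so had to differ. Another 6 members were not called, Pmp22 among them at 0.05. Prx, periaxin, which stabilizes myelin of peripheral nerve, had 12.5, 15.3 and 12.2 RPM at P20, against 5.01, 4.51 and 4.03 RPM at P0 (log2 fold change 1.56 ± 0.14 (SE), adjusted p = 5.83e-05). Ngfr, the low-affinity neurotrophin receptor of immature Schwann cells, had 2.14, 1.91 and 1.87 RPM at P20, against 8.02, 8.46 and 8.04 RPM at P0 (log2 fold change -2.05 ± 0.14 (SE), adjusted p = 1.3e-05), and Gap43, a growth cone protein, fell at -2.33. Sox10, made by all Schwann cells, had a smaller change of -0.58, and its call ended without P20 replicate 1 or 3 or P0 replicate 1 or 3 (adjusted p between 0.0627 and 0.171 in limma) and with a replicate block (0.0782).

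Immune gene lists did not share a direction. The mast cell protease genes fell: Tpsb2 had 0.72, 1.7 and 1.52 RPM at P20, against 13, 13.8 and 14.1 RPM at P0 (log2 fold change -3.47 ± 0.29 (SE), adjusted p = 3.99e-05), and Cpa3, Cma1 and Mcpt4 had -3.06, -2.59 and -2.27. Kit, the mast cell growth receptor, had 5.87, 6.87 and 6.46 RPM at P20, against 8.36, 7.13 and 10.2 RPM at P0 and was not called. Among macrophage genes Lyz2, lysozyme, had 12.2, 15.2 and 11.2 RPM at P20, against 2.32, 2.01 and 2.37 RPM at P0 (log2 fold change 2.51 ± 0.16 (SE), adjusted p = 1.04e-05), and Cd163 rose at 1.97, while Mrc1 fell at -0.53, a call that ended without P20 replicate 1 or 3 or P0 replicate 1. Over macrophage and mast cells together 4 of 19 rose and 5 fell. Antigen presentation genes had 10 of 12 tested members higher and 0 lower, 2 of them through P20 alone, the class II genes H2-Aa and H2-Eb1 at 3.63 and 3.16. Of 21 lymphocyte genes 3 were tested, all of which passed the filter through P20 alone and so had to be higher, and the 1 tested neutrophil gene, Cxcr2, was not called. Globin genes, whose near-identical copies share reads, were higher: Hbb-b1 had 34.5, 45.2 and 37.5 RPM at P20, against 1.96, 4.27 and 3.96 RPM at P0 (log2 fold change 3.60 ± 0.27 (SE), adjusted p = 2.44e-05), and 4 of 6 tested erythroid genes rose with 0 lower.

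Protein synthesis and housekeeping lists are set against the 37.2% higher and 15.3% lower of all tested genes. The higher calls of the one-carbon, immediate early and circadian lists were not far from that share. Of 56 ribosomal protein genes 41 rose and 0 fell, with a median of 0.64, and with centring 32 rose and 1 fell. These genes have many processed copies, so single values are uncertain. Genes of protein folding in the endoplasmic reticulum had 1 of 17 higher and 1 lower, with 0 higher without P20 replicate 1 or 2 and 3 lower without P0 replicate 2. One-carbon metabolism had 5 of 15 members higher and 4 lower, and 2 lower without P20 replicate 1 or 2 or P0 replicate 3. Immediate early genes had 7 of 16 higher and 2 lower, 3 higher after centring and 4 higher without P20 replicate 3 or P0 replicate 1. Fos, an early marker of handling and stimulation, had 6.98, 8.38 and 10.0 RPM at P20, against 6.07, 15.7 and 14.4 RPM at P0 and was not called. Circadian genes had 7 of 16 higher and 1 lower, with 3 lower without P20 replicate 3 and 2 without P0 replicate 3. Dbp, an output gene of the circadian clock, had 25.3, 29.3 and 10.5 RPM at P20, against 5.14, 3.38 and 2.87 RPM at P0 (log2 fold change 2.43 ± 0.37 (SE), adjusted p = 0.00077), and the repressor gene Nr1d1 rose at 2.04. The labels do not give the hour of collection.

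Certain genes varied most within an age. At P0, replicate 2 was high for Zbtb16, a glucocorticoid-induced factor, with 396, 559.7 and 397 RPM at P20, against 52.5, 183 and 53.2 RPM at P0, and for the glucocorticoid target Fkbp5, with 53, 54.6 and 36.8 RPM at P20, against 18.53, 61.7 and 18.3 RPM at P0. Per1, which is a clock gene and a glucocorticoid target, had 31.8, 44.2 and 38.5 RPM at P20, against 24.5, 74.7 and 16.3 RPM at P0, again with P0 replicate 2 highest. At P20, replicate 3 was low for Pvalb, the fast-fibre calcium buffer, with 71.7, 56.6 and 23.8 RPM at P20, against 28.5, 59.8 and 16.4 RPM at P0. It was also low for Ankrd1, a stretch-responsive muscle gene, which had 44.5, 43.7 and 10.6 RPM at P20, against 6.12, 14.7 and 6.75 RPM at P0. Of these 5, Zbtb16 and Ankrd1 were called, at 2.48 and 1.70, and the call of Ankrd1 ended with centring (adjusted p = 0.0612 in limma) and without P20 replicate 1 or 2 or P0 replicate 1 or 3.

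The comparison was repeated in tongues of mice with Zac1 expressed from both alleles, which share no library with it. Their values come from the same 2 tables, so the repeat cannot tell age apart from whatever else differed between those tables. The genes tested were those that passed the filter in the wild-type libraries. In the biallelic tongues 6408 genes were called, 4238 higher and 2170 lower at P20, with a median log2 fold change of 0.19. Calls in the same direction in both genotypes covered 5494 genes, which is 81.49% of the wild-type calls and 85.74% of the biallelic calls, and 1 gene was called in opposite directions. Of the 2721 wild-type calls of at least 2-fold, 2719 had the same sign in the biallelic tongues. Plagl1 in biallelic tongues had 77.1, 50.9 and 66.7 RPM at P20, against 490, 429.6 and 499 RPM at P0, a log2 fold change of -2.88, against -3.15 in wild type.

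Values of 4 genes are given for both genotypes. The biallelic and wild-type log2 fold changes were -3.99 and -5.11 for Igf2, -7.06 and -7.47 for Myh8, and 6.37 and 5.20 for Mb. For Tgm3 they were 2.31 and 2.69. Tested directly, the change from birth to P20 differed between the genotypes for 0 genes at an adjusted p under 0.05 in limma. The smallest adjusted p was 0.192, and 329 genes had an unadjusted p under 0.05.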

How the data were processed

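Tongue RNA was sequenced at P20 and P0, with 3 wild-type libraries per age. The submitters' processing notes name Trim Galore 0.4.2, TopHat2 2.1.0 and build GRCm38. How reads were assigned to genes, and whether by strand, is not stated there. The deposited values are log2 RPM, made by the authors per library from its own read total, and every value below 1000 reads was a whole number of reads within 0.05 of a read. Rows of both tables were matched by probe and gene. Genes with log2 RPM of 0 or above in 3 or more libraries of the 6 entered a limma fit (version 3.58.1, under R 4.3.3; moderated test with trend, Benjamini-Hochberg adjustment over all tested genes, adjusted p under 0.05). Levels are printed in RPM. A value of 0 reads is listed as 0.9 reads. The fit was tested on simulated data.

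The text names Plagl1, up to 20 called genes of largest and 20 of smallest log2 fold change that did not overlap between the ages and averaged at least 20 RPM, up to 8 called members per list and direction, up to 3 uncalled members per list of highest level, the isoform pairs, and up to 10 genes per age of largest SD. The salivary and fat-cell genes under the filter and the tissue markers were named after their values were seen. The members and lists were chosen with earlier results of these data known. Alternatives were median centring, quantile normalization, voom on recovered reads, log2(RPM + 1), other filters, no trend, a robust trend, a replicate block, leaving out each library and 1 fit over both genotypes. Promoter sequences are from RefSeq. Isoform pairs with a form at 0 reads in all 6 libraries were left out. Some genes and 1 isoform pair are not reported here.

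Replicate numbers were checked as pairs: deviations from the age means of libraries with the same number had correlations of 0.161, 0.0936 and 0.168, so the numbers were not taken to pair the libraries.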

Additional observations from a re-analysis of the deposited data

How the results depend on the processing

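Of the genes named, 185 were put through the alternatives, and 161 of these were called. Of the 161, 149 kept their side of the threshold in each of the 17 alternatives that could be fitted for them. Among the 161, 0 changed sign. Without the filter 16735 genes were called, 13591 higher and 3144 lower, with 2806 higher and 1939 lower by at least 2-fold. The median log2 fold change was then 0.53. These counts are not to be read as real rises, because 0 reads are listed as 0.9 reads and the P0 libraries had larger read totals. Lep, with 0 reads at both ages, is thus listed at a mean of 0.0183 RPM at P20 and 0.0124 RPM at P0. With a filter of 5 RPM, which tests fewer genes, the calls of at least 2-fold were 1216 higher and 484 lower. The 1967 lower calls became 3154 with median centring, 3305 with quantile normalization and 3216 with median-of-ratios factors in voom. A replicate block gave 7110 calls. In deviations from the age means, each P20 library correlated best with the P0 library of its own number, a hint from the data and not from the design. Leaving out 1 library at a time gave 5345 to 6822 calls. The age by genotype test called 0 genes, and 1 with median centring, an alternative added after seeing the data. That gene, Phactr2, was named after its values were seen. Its log2 fold change was 0.45 in biallelic and -0.59 in wild-type tongues, and the cause was not tested. Values near 0 changed sign in some fits. Over single left-out libraries the log2 fold change ran from -0.23 to 0.11 for Ckm, from -0.21 to 0.20 for Col1a1, from -0.35 to 0.017 for Igf1r, from -0.091 to 1.18 for Myh2, from -0.11 to 0.084 for Neb, from -0.18 to 0.92 for Per1 and from -0.10 to 0.12 for Ttn. The log2 ratio difference ran from -0.47 to 0.060 for Ckm/Ckb and from -0.16 to 0.35 for Pfkm/Pfkl. Neb was at 0.20 with quantile normalization, and Ckb at -0.0084, -0.017 and -0.025 with median centring, quantile normalization and median-of-ratios factors. Among the counts of list members, mitosis genes called lower ranged from 1 to 25 and replication genes called lower from 10 to 29. Genes under about 1 RPM were not tested, so changes confined to low levels are outside the calls. The filter set this limit and not the depth, since 1 read is 0.0108 to 0.022 RPM in the 6 libraries.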
